A study of Mus musculus with 23 samples.

Results

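The astrocyte marker genes Gfap, Aqp4, Aldh1l1, Slc1a2, Slc1a3, Gja1, S100b, Glul, Gjb6, and Aldoc were followed in adult mouse brain, over the progeny of recipient mothers on 3 diets. All non-control probes that carry 1 of these 10 gene names were used, which gave 15 of the 39429 probes and 10 of the 31829 gene names on the array. Gfap and Slc1a2 had 3 probes each, Aqp4 had 2, and the other 7 genes had 1. All 15 probes were well above the local background, by the flag of the scanner software, on all 12 arrays.

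Each array measured the RNA of 1 whole brain, cerebrum and cerebellum together, of a male C57BL/6J mouse at 19 weeks of age that had gone through behavioral tests. The mice came from in vitro fertilized C57BL/6J eggs transferred to ICR recipient mothers, which were fed from 1 month before the transfer until delivery with the control diet (CD; 20% casein and 0.02% folic acid by weight), the protein-restricted diet (PR; 5% casein and 0.02% folic acid), or the PR diet with added folic acid (FA; 5% casein and 0.1% folic acid). All pups were delivered by caesarean section, nursed by ICR foster mothers, and fed the CD after weaning, and the study's sources differ on whether the foster mothers had the CD only. Each group had 4 mice, and their litters are not given. The 4 arrays of a group lay on 1 slide and were scanned together, so that diet and slide cannot be told apart in any comparison. On the CD slide 27068 to 28458 spots were well above background, on the PR slide 31266 to 33478, and on the FA slide 30408 to 31672, and no spot was saturated.

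Astrocytes are the glial cells that enclose synapses and blood vessels. They clear glutamate from the synaptic cleft and turn it into glutamine, buffer potassium and water, and are coupled into networks by gap junctions. Gfap, the filament protein by which they are most often stained, is known to rise when astrocytes react to injury, whereas Aldh1l1 and the glutamate transporters are used as markers of astrocytes in general.

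Values below are the log2 of the deposited normalized intensity, and a difference of 1 is a 2-fold change. A probe was called where limma gave a Benjamini-Hochberg adjusted p under 0.05 over all 39429 probes. Levels of different probes were not compared, since each probe has its own brightness for a given amount of RNA. In RNA of a whole brain, fewer astrocytes and less of a transcript per astrocyte cannot be told apart.

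Relative to the CD group, 5 of the 15 probes were called in PR brains (33.3%), 3 higher and 2 lower. Over all probes 30.0% were called in this comparison, 13.4% higher and 16.6% lower, and 30.8% of the 23753 probes that every array measured well above background. In FA brains 5 of 15 were called (33.3%), 2 higher and 3 lower. Over all probes 34.4% were called there, 16.4% higher and 18.0% lower, and 37.0% of those bright on every array. The brains of the compared groups did not overlap for 5 of the 15 probes in each comparison, beside 33.2% of all probes in the PR and 36.9% in the FA comparison. The share among the markers was thus near that of the array as a whole. The probes that were called belonged to Gfap, Aqp4, Slc1a2, and, in the PR group, Gja1. Both comparisons share the 4 CD brains. The median difference of the 15 probes was -0.017 for PR and -0.044 for FA, beside -0.016 and -0.0061 over all probes. Over those bright on every array, as all 15 were, the medians were -0.006 and 0.006. No marker reached at least 2-fold with an adjusted p under 0.0001, the limit in the methods of the study, applied here to limma p-values. Of all probes, 0.0862% passed it for PR, 0.195% for FA, and 0.0% between FA and PR. The study applied its limit to a Tukey test instead, and reported genes that passed in every comparison, also between FA and PR. The PR count depended on single brains: it was 2 without CD replicate 1, CD replicate 2, PR replicate 3, or PR replicate 4, and 3 without PR replicate 1. The FA count was 5 whichever array was left out.

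**Figure D1:**
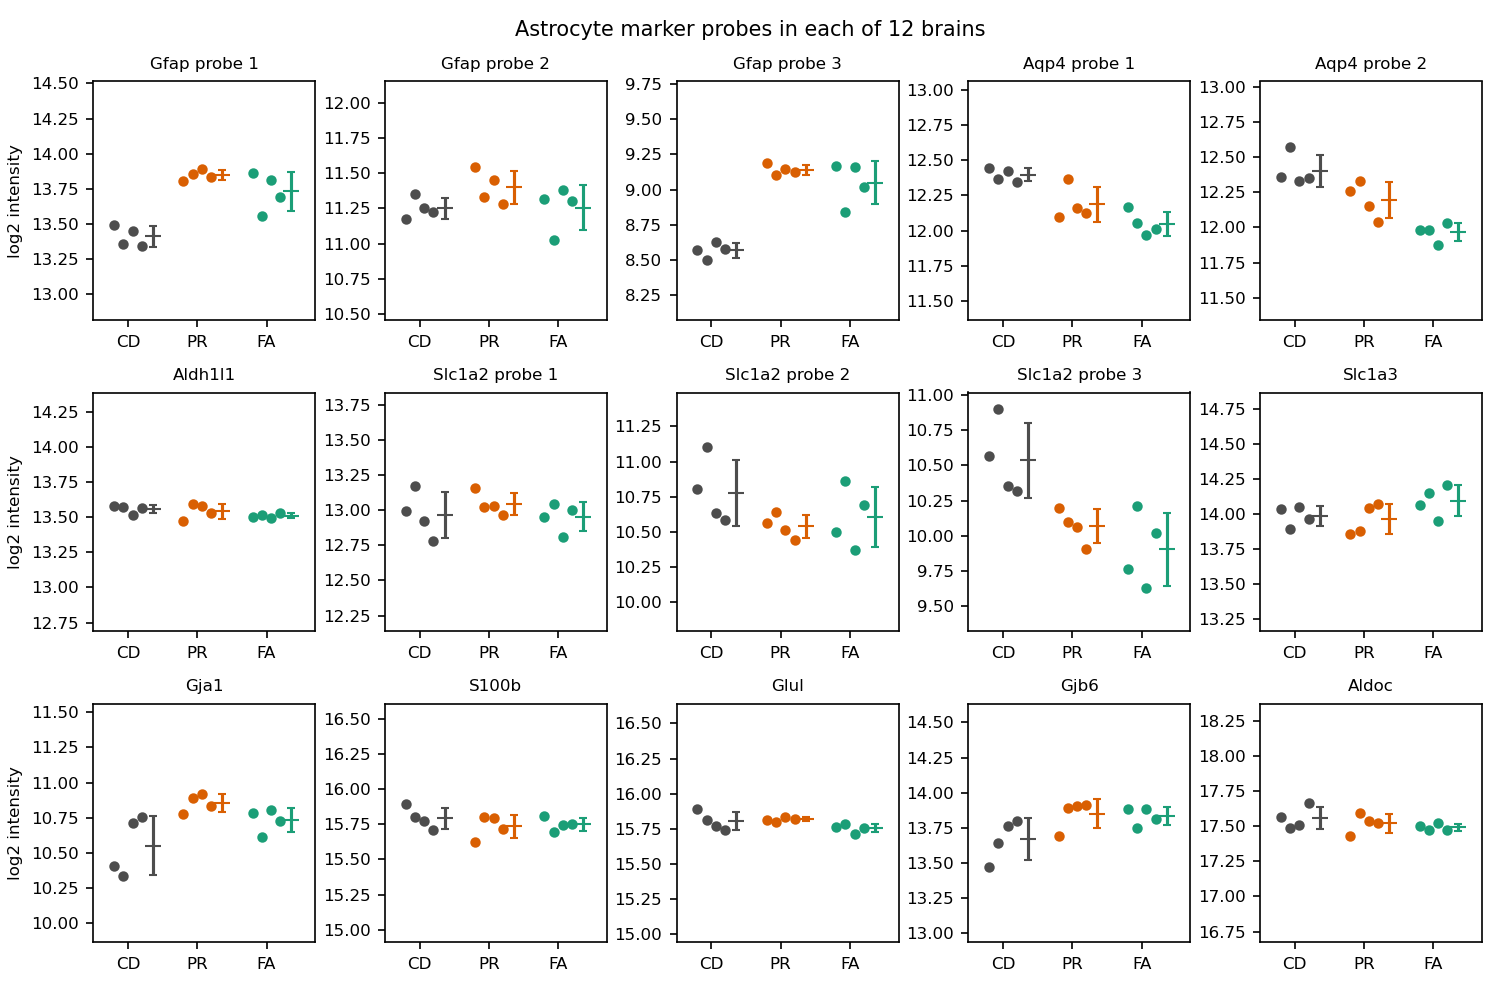
Log2 normalized intensity of each astrocyte marker probe (vertical axis, the same span in every panel) in the 4 brains of the CD, the PR, and the FA group; bars at the right of each group give the mean and SD. Probes 1 and 3 of Gfap lay higher and both probes of Aqp4 lay lower in the FA brains than in any CD brain, whereas the PR and FA brains overlapped with the CD brains for Aldh1l1, S100b, Glul, and Aldoc.

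Gfap, the intermediate filament protein of astrocytes, was higher in both PR and FA brains by 2 of its 3 probes. The 3 probes lie on chromosome 11, on the minus strand of mm9, and were designed on different transcripts: probes 1 and 3 on transcript variant 1 (chr11:102751813-102751872 and chr11:102752726-102752785) and probe 2 on transcript variant 2 (chr11:102748864-102748923). Their starts are 913 bases (1 and 3), 2949 bases (1 and 2), and 3862 bases (2 and 3) apart. No mm9 annotation of exons was used here, so that the part of the gene under each probe is given by coordinates only. The first 30 of the 60 bases of each probe are shown because the probes of this gene gave different results. Capitals mark a stretch of 12 bases that Gfap probe 1 holds at positions 13 and 49, and 0.791% of all probes hold a repeated stretch of this length.
Gfap probe 1: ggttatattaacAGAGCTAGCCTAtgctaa
Gfap probe 2: tttgaggaactgaaacgtgttgtgttcaag
Gfap probe 3: caaaaggctcacaatacaagttgtcccaat

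By Gfap probe 1 the CD brains measured 13.49, 13.36, 13.45, and 13.35, the PR brains 13.81, 13.85, 13.89, and 13.83, and the FA brains 13.87, 13.56, 13.81, and 13.69. All 8 PR and FA brains lay above all 4 CD brains, and FA replicate 2 lay closest to them. CD brains averaged 13.41 ± 0.073 (SD, n = 4) and PR brains 13.85 ± 0.036, a 1.35-fold difference (log2 0.43, SE 0.067, adjusted p = 0.00099). The FA group had 13.73 ± 0.14, which was 1.25-fold the CD level (log2 0.32, adjusted p = 0.0045).

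By Gfap probe 3 the CD brains measured 8.57, 8.50, 8.63, and 8.58, the PR brains 9.19, 9.10, 9.15, and 9.12, and the FA brains 9.17, 8.84, 9.16, and 9.02. The groups again did not overlap, and FA replicate 2 was again the lowest of the 8. The difference was 1.49-fold in the PR group (log2 0.57, SE 0.070, adjusted p = 0.00024) and 1.40-fold in the FA group (log2 0.48, adjusted p = 0.00055). Of the 23753 probes well above background on every array, 4.67% differed by at least as much between PR and CD and 10.8% between FA and CD. Both probes were called in all 12 fits that left out 1 array.

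Gfap probe 2, on transcript variant 2, did not pass the test. It ranged from 11.18 to 11.35 in the CD, from 11.28 to 11.54 in the PR, and from 11.02 to 11.38 in the FA brains, so that all groups overlapped. Its difference was 0.15 in the PR group (95% confidence interval -0.039 to 0.34, adjusted p = 0.21) and 0.0026 in the FA group (-0.19 to 0.19, adjusted p = 0.98).

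Aqp4, the water channel of the astrocyte endfeet on blood vessels, was lower in the FA brains by both probes and in the PR brains by 1. Both lie on chromosome 18, with starts 3413 bases apart on the same transcript. Aqp4 probe 1 measured 12.45, 12.37, 12.42, and 12.35 in the CD, 12.10, 12.37, 12.16, and 12.13 in the PR, and 12.17, 12.05, 11.97, and 12.01 in the FA brains. The FA brains lay below all CD brains, whereas PR replicate 2 lay among them. The FA group was 1.27-fold lower (log2 -0.35, SE 0.066, adjusted p = 0.0026) and the PR group 1.16-fold lower (log2 -0.21, adjusted p = 0.036).

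Aqp4 probe 2 measured 12.36, 12.57, 12.33, and 12.35 in the CD, 12.26, 12.33, 12.15, and 12.04 in the PR, and 11.98, 11.98, 11.87, and 12.03 in the FA brains. CD replicate 2 stood above the other CD brains, and the 3 groups followed each other without overlap, although the highest PR and the lowest CD brain were almost equal. The FA group was 1.35-fold lower than the CD group (log2 -0.44, SE 0.075, adjusted p = 0.0015). The PR difference was -0.21 and missed the limit (adjusted p = 0.060). Both FA calls held in all 12 fits without 1 array, and the PR call of Aqp4 probe 1 in 6 of 12. It was lost without CD replicate 1, 2, or 3 or PR replicate 1, 3, or 4, where its adjusted p reached 0.091.

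Slc1a2 encodes the glutamate transporter GLT-1, which takes up most of the glutamate in the forebrain, and its 3 probes gave 3 different results. They lie on the plus strand of chromosome 2 of mm9, probe 1 on transcript variant 3 (chr2:102617752-102617811) and probes 2 and 3 on transcript variant 1 (chr2:102622252-102622311 and chr2:102626380-102626439), with 4500 bases from the start of probe 1 to probe 2 and 4128 from probe 2 to probe 3. The first 30 bases of each are shown for the same reason as for Gfap.
Slc1a2 probe 1: aagcaactctaatcagtgtgtctatgccgc
Slc1a2 probe 2: gtagaatgtttcagagtttcatgggtgccc
Slc1a2 probe 3: aacccagtttccagcattcagacatcagta

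Slc1a2 probe 3, the farthest along the plus strand, measured 10.57, 10.905, 10.36, and 10.32 in the CD, 10.20, 10.10, 10.06, and 9.91 in the PR, and 9.76, 10.21, 9.63, and 10.02 in the FA brains. All PR and FA brains lay below all CD brains. The PR group was 1.39-fold lower (log2 -0.47, SE 0.15, adjusted p = 0.040) and the FA group 1.55-fold lower (log2 -0.63, adjusted p = 0.0090). The FA call was kept in all 12 fits without 1 array and the PR call in 5 of 12. The PR call was lost without CD replicate 1 or 2, any 1 PR array, or FA replicate 4, with an adjusted p of up to 0.10.

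The brightest probe of Slc1a2, probe 1, was called in neither group. It ranged from 12.78 to 13.17 in the CD, from 12.97 to 13.16 in the PR, and from 12.81 to 13.05 in the FA brains, with differences of 0.076 (95% confidence interval -0.11 to 0.26) and -0.014 (-0.20 to 0.17). Slc1a2 probe 2 lay between the others on the chromosome, and its differences also lay between theirs, at -0.24 (adjusted p = 0.18) and -0.17 (adjusted p = 0.33).

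Slc1a3, which encodes the transporter GLAST, and Glul, the glutamine synthetase that converts the glutamate taken up, were called in no comparison. Slc1a3 (chr15:8584236-8584295, minus strand) ranged from 13.89 to 14.05 in the CD, from 13.86 to 14.07 in the PR, and from 13.95 to 14.20 in the FA brains. Glul (chr1:155756765-155756824, plus strand) ranged from 15.74 to 15.89, from 15.80 to 15.84, and from 15.72 to 15.78 in the same order. The 4 PR brains lay within an SD of 0.015 for Glul, and the 95% confidence intervals of its differences were -0.074 to 0.10 in the PR and -0.14 to 0.040 in the FA group.

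Gja1 and Gjb6 encode connexin 43 and connexin 30, the gap junction proteins that couple astrocytes. Gja1 (chr10:56109814-56109873, plus strand), whose probe was spotted 10 times on each array, measured 10.41, 10.34, 10.71, and 10.75 in the CD brains, 10.78, 10.89, 10.92, and 10.83 in the PR brains, and 10.785, 10.62, 10.81, and 10.72 in the FA brains. The CD brains fell into a lower and a higher pair, and the higher pair lay just under the PR brains and among the FA brains. The PR group was 1.23-fold higher (log2 0.30, SE 0.094, adjusted p = 0.035), and the FA difference of 0.18 did not pass the test (adjusted p = 0.16). The PR call was kept in 7 of 12 fits without 1 array, and was lost without CD replicate 1 or 2 or PR replicate 2, 3, or 4, with an adjusted p of up to 0.090.

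Gjb6 (chr14:57742226-57742285, minus strand) measured 13.47, 13.64, 13.77, and 13.80 in the CD, 13.69, 13.89, 13.90, and 13.92 in the PR, and 13.89, 13.75, 13.88, and 13.81 in the FA brains. The groups overlapped, and neither difference passed the test, at 0.18 in the PR (adjusted p = 0.11) and 0.16 in the FA group (adjusted p = 0.14).

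Aldh1l1, a folate enzyme, Aldoc, the brain form of aldolase, and S100b, a calcium-binding protein, were called in no comparison. Aldh1l1 (chr6:90549091-90549150, plus strand) varied least within the FA group, with an SD of 0.018, and its differences had 95% confidence intervals of -0.10 to 0.067 in the PR and -0.13 to 0.034 in the FA group. Aldoc (chr11:78140198-78140257, plus strand) ranged from 17.43 to 17.66 over all 12 brains, and S100b (chr10:75723783-75723842, plus strand) from 15.63 to 15.89. These differences were -0.036 and -0.063 for Aldoc and -0.059 and -0.044 for S100b, in the PR and the FA group.

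The scaling of the arrays bears on these bright probes. When each array was scaled to the 75th percentile of its probes instead of the deposited normalization, Aldoc was lower in both, at -0.30 for PR and -0.27 for FA, as were S100b, at -0.23 and -0.19, and Glul, at -0.16 and -0.19, all with an adjusted p under 0.05, and Aldh1l1 was called in the FA group at -0.13. With that scaling 9 of 15 probes were called in each group, 6 lower and 3 higher in the PR and 7 lower and 2 higher in the FA group, beside 37.3% of all probes for PR and 39.6% for FA. Probes 1 and 3 of Gfap, both probes of Aqp4, and Slc1a2 probe 3 had the same direction under both scalings.

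**Figure D2:**
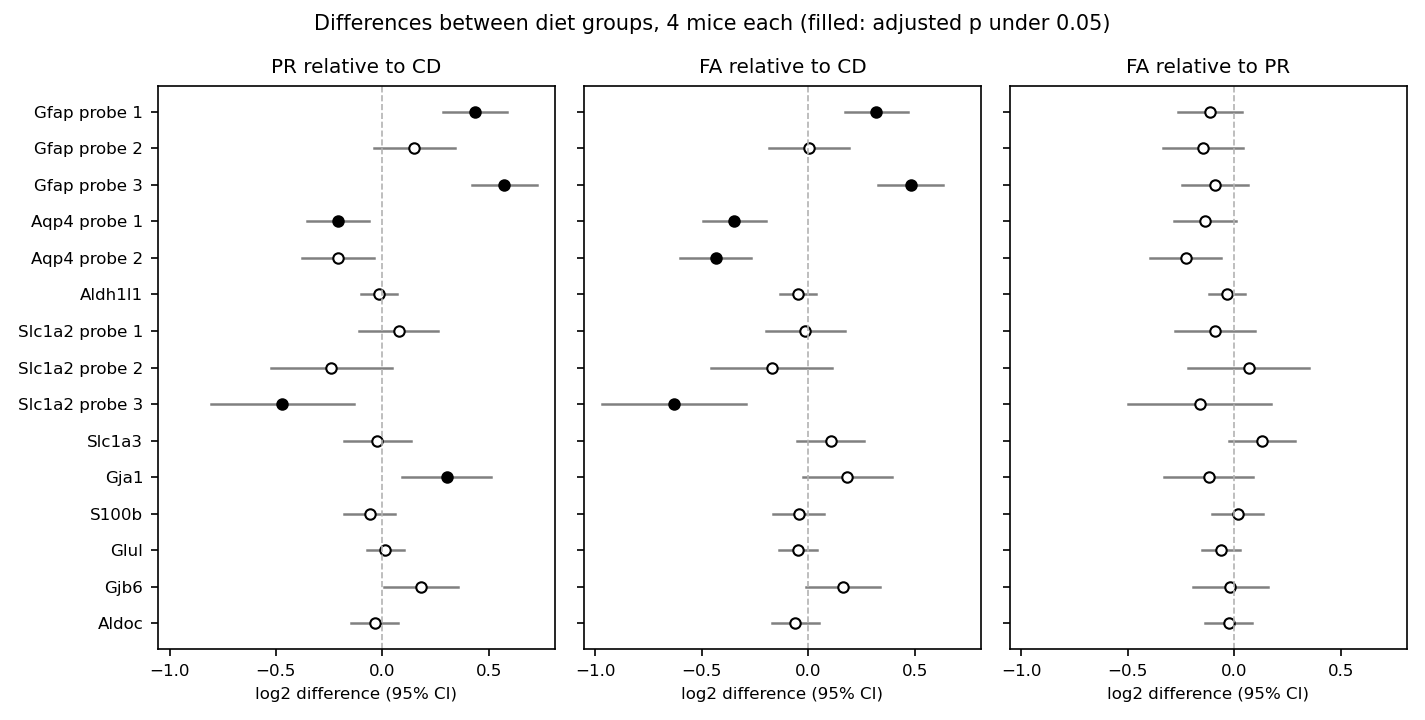
Log2 difference between group means for each astrocyte marker probe (horizontal axis) with its 95% confidence interval, for PR relative to CD, FA relative to CD, and FA relative to PR; filled points had an adjusted p under 0.05. The filled points are 5 in each comparison with the CD group, and the FA relative to PR panel has none.

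Between the FA and the PR group, which differ in the folic acid of the maternal diet, none of the 15 probes was called by limma, beside 0.614% of all probes. At an unadjusted p under 0.05 there was 1, Aqp4 probe 2, which was 1.17-fold lower in the FA group (log2 -0.23, SE 0.075, adjusted p = 0.21), and the Tukey test of the methods also called 0. The groups did not overlap for 2 of the 15 probes, Aqp4 probe 2 and Glul, as for 11.1% of all probes. Differences of the 15 probes ran from -0.23 to 0.13, and the 95% confidence intervals of Gfap probes 1 and 3 were -0.26 to 0.035 and -0.25 to 0.062.

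Where a gene had several probes, a single scaling factor per array cancels in the difference of their log2 values within a brain. That difference can still depend on other steps of the normalization. For PR relative to CD, Gfap probes 1 and 3 differed by 0.43 and 0.57 with the deposited normalization. With scaling to the 75th percentile of all probes these were 0.35 and 0.60, and with normexp background correction and quantile normalization 0.47 and 0.47. The differences below are of the deposited values. Slc1a2 probe 2 minus Slc1a2 probe 3 was 0.24, 0.20, 0.27, and 0.26 in the CD, 0.37, 0.54, 0.44, and 0.53 in the PR, and 0.74, 0.65, 0.74, and 0.68 in the FA brains. The 3 groups were separate from each other, although both probes were designed on the same transcript variant. The mean of the PR brains was 0.23 above that of the CD brains, and the mean of the FA brains 0.46 above it.

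Gfap probe 2 minus Gfap probe 3 was 2.61, 2.86, 2.62, and 2.65 in the CD, 2.35, 2.23, 2.30, and 2.16 in the PR, and 2.15, 2.18, 2.22, and 2.28 in the FA brains. The PR and FA brains lay below all CD brains, with mean differences of -0.42 and -0.48. Over 7 pairs of probes and 3 comparisons, 21 exact permutation tests (two-sided) were made, after the values had been seen. The 3 differences of a gene with 3 probes share those probes and are not independent. The groups did not overlap for 5 of 7 pairs between PR and CD, 5 of 7 between FA and CD, and 1 of 7 between FA and PR. Over all 5807 pairs of probes of a gene that were well above background throughout, the groups did not overlap for 34.4%, 37.8%, and 12.9% in the same order. These 11 tests gave the smallest p that 4 against 4 brains can give, 0.029, and none of the 21 passed after Benjamini-Hochberg adjustment (smallest adjusted p = 0.055). For the pair of Aqp4 probes the groups overlapped, with an exact p of 1.0 in the PR and 0.43 in the FA comparison.

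**Figure D3:**
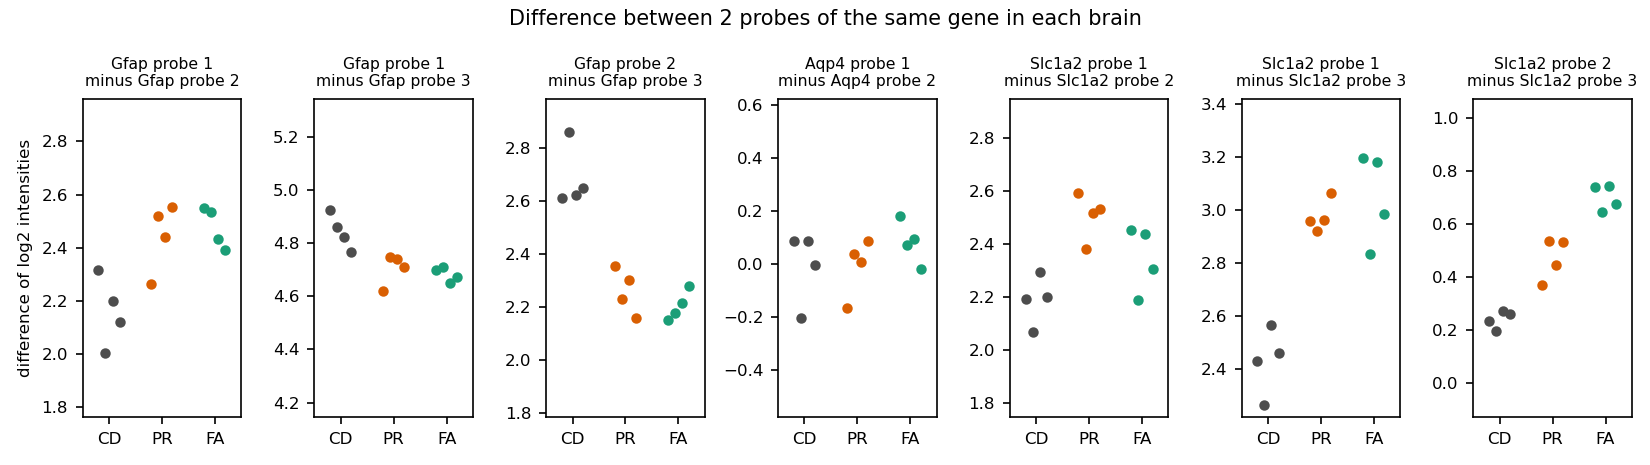
Difference of log2 intensity between 2 probes of the same gene (vertical axis, the same span in every panel) in each of the 4 brains of the CD, the PR, and the FA group. Slc1a2 probe 2 minus probe 3 separates all 3 groups, Gfap probe 2 minus probe 3 separates the CD brains from the others, and the Aqp4 probes show no separation.

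Between mice of the same diet, the 10 genes did not move as 1 group. Deviations from the group mean were taken for the brightest probe of each gene and correlated over the 12 mice. Of 45 pairs of genes 30 correlated positively, with a median Pearson r of 0.10, and these values share the normalization of each array. The connexin genes Gja1 and Gjb6 were the closest pair (r = 0.79), followed by Aldh1l1 and S100b (0.67), Aqp4 and S100b (0.65), and Gfap and S100b (0.64). Slc1a2 and Glul, of glutamate uptake, correlated with each other (0.56) and negatively with the connexin genes: r was -0.84 for Slc1a2 and Gja1, -0.66 for Slc1a2 and Gjb6, -0.72 for Glul and Gja1, and -0.75 for Glul and Gjb6. Scaled to the 75th percentile these 4 were -0.82, -0.61, -0.69, and -0.57, while Slc1a2 and Aldoc changed from -0.77 to -0.32. Slc1a3, the other glutamate transporter, did not follow this contrast, with r of 0.048 for Gja1 and 0.041 for Gjb6. Its r was -0.04 with Slc1a2 and 0.36 with Glul. Slc1a2, Glul, Gja1, and Gjb6 all varied most in the CD brains, which therefore weigh most in their r with each other. For Gja1 the SD was 0.21 in the CD, 0.062 in the PR, and 0.086 in the FA brains, and for Glul 0.065, 0.015, and 0.028. In the order of slide position, CD brains rose for Gjb6 (13.47, 13.64, 13.77, 13.80) and fell for Glul (15.89, 15.81, 15.77, 15.74). Correlations within a single group were not taken. Different probes of 1 gene correlated at 0.36 (Aqp4) to 0.98 (Slc1a2 probes 2 and 3).

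**Figure D4:**
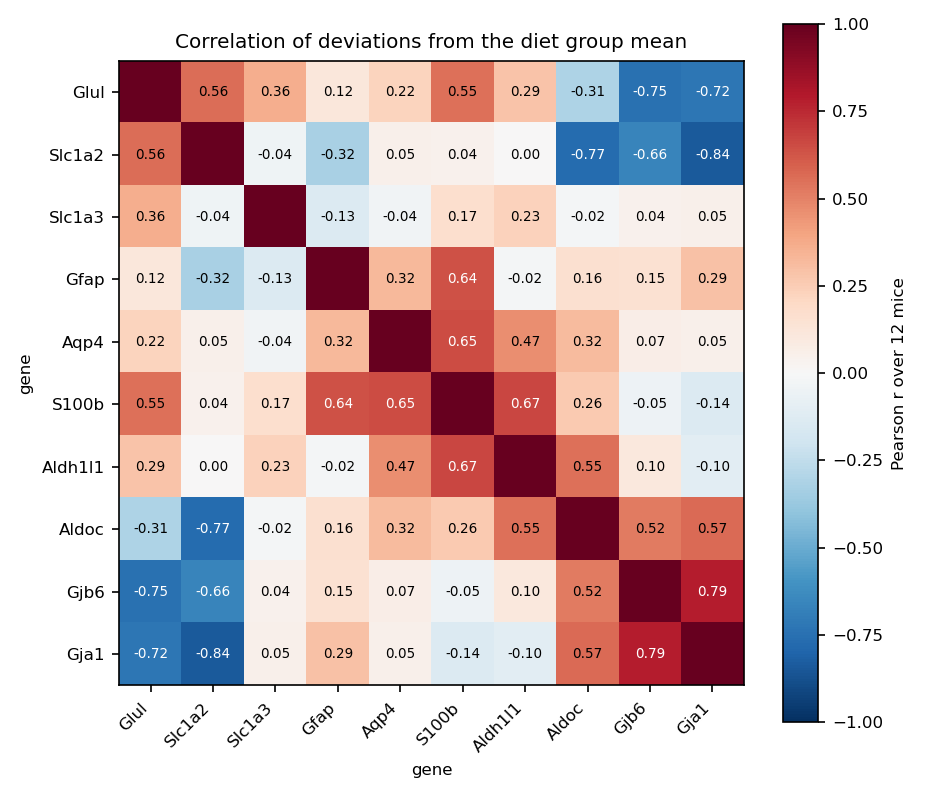
Pearson correlation of deviations from the diet group mean for each pair of astrocyte marker genes (rows and columns, brightest probe of each) over the 12 mice; the color scale runs from -1 to 1. Gja1 and Gjb6 form a block at 0.79 and are negative with Slc1a2 and Glul, from -0.66 to -0.84. The deviations of these genes were widest in the CD brains.

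Among the probes well above background on all arrays, genes whose deviations over the 12 mice were among the most like the mean deviation of the 10 markers were Ebf3 (r = 0.93), Cnksr3 (0.93), Dock11 (0.92), Asf1b (0.91), Klf15 (0.91), and Mtcp1 (0.90). They were picked as among the highest of 23753 probes, whose median r with that mean was 0.025. The mean deviation of the markers itself was small, from -0.063 in PR replicate 1 to 0.039 in FA replicate 1. Its own members correlated with it between -0.36 (Slc1a2) and 0.74 (S100b).

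Among a further 30 genes of astrocytes, beyond the 10 markers, genes were called in both directions. For PR, 1 was lower and 5 were higher (6 of 30), and for FA 3 were lower and 4 higher (23.3% called), with medians of 0.032 and -0.021. All 30 were well above background on every array, and among all such probes 30.8% were called for PR and 37.0% for FA. This list and those that follow are set beside shares of all probes or of all bright probes, from which nothing particular to a list is read. Their counts and differences are of the deposited normalization. The scaling that moved bright markers such as Aldoc lower is not reported here for the lists. Acsbg1, an acyl-CoA synthetase, rose in both (log2 0.35, adjusted p = 0.00062, and 0.44, adjusted p = 0.00014). Slc6a11, the GABA transporter GAT-3, was lower in the FA group (log2 -0.68, adjusted p = 0.040). Its PR difference was -0.56 and missed the limit (adjusted p = 0.088), with SDs of 0.037 in the CD, 0.48 in the PR, and 0.34 in the FA brains. Hepacam, an adhesion protein of the endfeet (-0.32), and Slc4a4, a bicarbonate transporter (-0.29), were also lower in the FA group. The PR count was 3 without PR replicate 4, and the FA count was 4 without CD replicate 1, CD replicate 3, or FA replicate 1.

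Of 20 genes known to respond in reactive astrocytes, 9 were lower and 2 higher in the FA group (55.0% called), and 5 were lower and 1 higher in the PR group (30.0%). Of the 17 that every array measured well above background, 7 were lower and 2 higher in the FA group (52.9%, beside 37.0% of all bright probes), and 2 lower and 1 higher in the PR group (17.6%, beside 30.8%). Serpina3n, a secreted protease inhibitor, was higher in both groups (log2 0.33, adjusted p = 0.026, and 0.30, adjusted p = 0.034). Osmr, the oncostatin M receptor, was lower in both (-0.26, adjusted p = 0.0046, and -0.32, adjusted p = 0.0012). Hspb1, a small heat shock protein, was lower in the FA group (-0.32, adjusted p = 0.031), and Cxcl10, a chemokine, in the PR group (-0.90, adjusted p = 0.046).

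In glutamate and glutamine handling, 3 of 16 genes were higher and 1 lower in the PR group, and 4 higher and 1 lower in the FA group (31.2% called, beside 37.0%). The PR share was 4 of 16, beside 30.8% of all bright probes. Slc38a2, a glutamine carrier, rose by 0.57 and 0.44, Gls2, a glutaminase, by 0.33 and 0.39, and Got2, the mitochondrial aspartate aminotransferase, by 0.30 and 0.38. Glud1, glutamate dehydrogenase, was lower in the PR group (-0.21, adjusted p = 0.014). Of 10 other connexin and pannexin genes, 2 were lower in the PR group, and 1 was lower and 2 were higher in the FA group. Of the 9 that every array measured well above background, 22.2% were called for PR and 33.3% for FA, beside the same 30.8% and 37.0%. Gjb1, a connexin of myelinating cells, rose in the FA group (0.23, adjusted p = 0.041), and Panx1, a pannexin channel, was lower in both (-0.22 and -0.18).

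Of 10 genes of the dystrophin complex, which anchors Aqp4 at the endfeet, 2 were higher and 1 lower in the PR group, and 1 was higher and 2 lower in the FA group, so that 3 of 10 were called in each, beside 30.0% and 34.4% of all probes. Of the 9 that every array measured well above background, 33.3% were called for PR and 22.2% for FA, beside 30.8% and 37.0% of all bright probes. Utrn, which encodes utrophin, was lower in both (-0.44 and -0.53), and Dtnb, a dystrobrevin, higher in both (0.35 and 0.37). Among 23 genes of glycolysis and lactate transport, the pathway of Aldoc, 9 were higher and 2 lower in the PR group (47.8% called, beside 30.8% of all bright probes), and 8 higher and 2 lower in the FA group (43.5%, beside 37.0%). These counts are of the deposited normalization. With scaling to the 75th percentile of all probes, Aldoc itself was lower, at -0.30 for PR and -0.27 for FA. Pgk1, phosphoglycerate kinase, rose by 0.37 and 0.44, and Slc16a7, the lactate carrier MCT2, was lower, at -0.37 and -0.58.

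**Figure D5:**
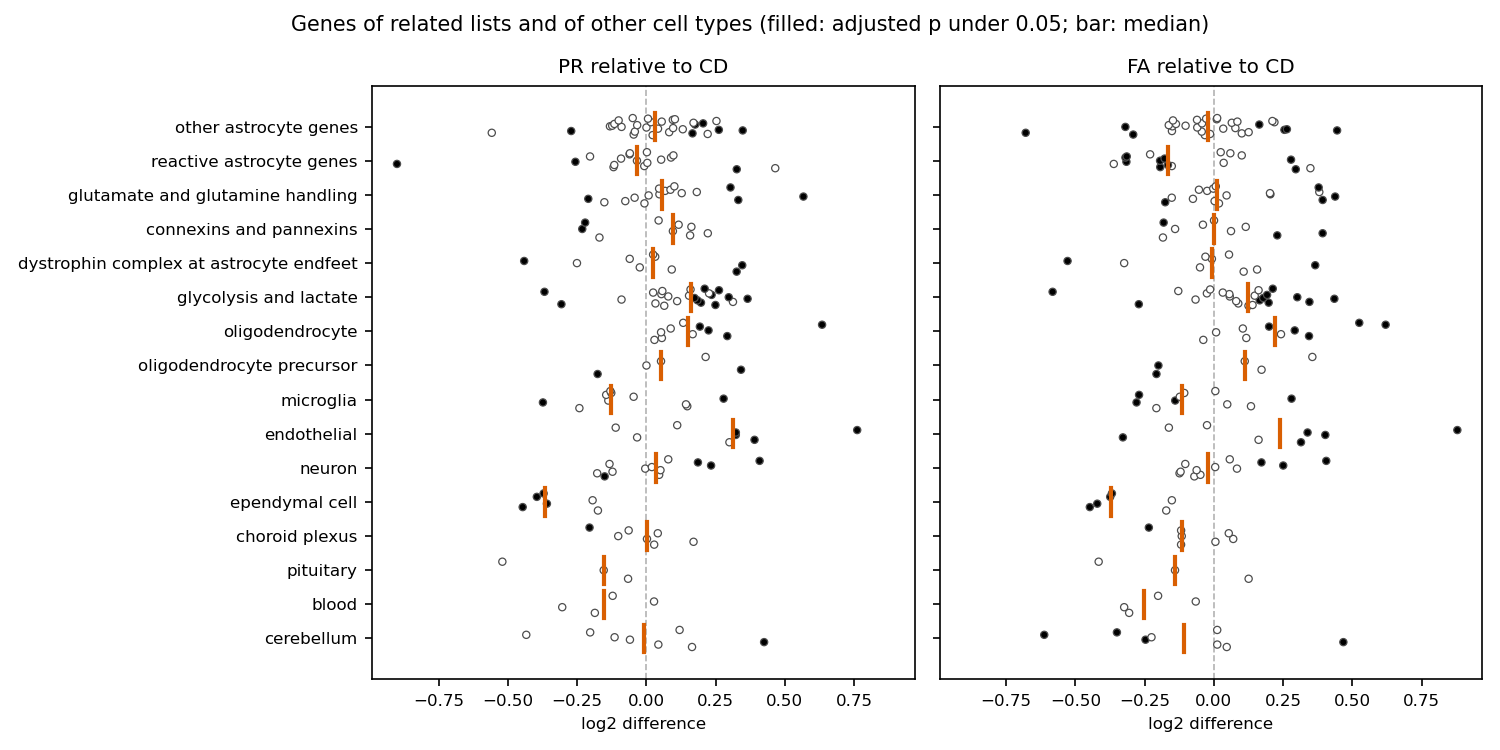
Log2 difference (horizontal axis) of the genes of each list that all 12 arrays measured well above background, for PR and FA relative to CD; filled points had an adjusted p under 0.05 and bars give the median of a list. Oligodendrocyte and endothelial genes lie mostly above 0 and ependymal genes below it, while the other astrocyte genes lie around 0, with medians of 0.032 and -0.021. All differences are of the deposited normalization.

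Lists of marker genes of other cells were compared between the same groups, where 30.0% of all probes were called for PR and 34.4% for FA. The share called was above these values in both comparisons for oligodendrocyte, oligodendrocyte precursor, endothelial, and ependymal genes, and below them in both for choroid plexus, pituitary, and blood genes, in lists of 4 to 10 genes. Of 10 oligodendrocyte genes 4 were higher in the PR and 5 in the FA group and none was lower, and the mean log2 level of the list was 12.83 to 12.88 in the CD, 13.01 to 13.11 in the PR, and 13.00 to 13.18 in the FA brains. Of 8 endothelial genes 4 were higher in the PR group, and 4 were higher and 1 lower in the FA group, with mean levels of 10.35 to 10.49, 10.54 to 10.77, and 10.57 to 10.69. Of 7 ependymal genes 4 were lower in both groups, with mean levels of 9.38 to 9.48, 9.11 to 9.21, and 8.86 to 9.34. Ugt8a, of myelin lipid synthesis, rose by 0.63 and 0.62, Tek, an endothelial receptor, by 0.76 and 0.88, and Ccdc153, an ependymal gene, was lower, at -0.45 in both. All 12 neuronal genes were well above background on all arrays, with mean levels of 14.88 to 15.00 in the CD, 14.98 to 15.01 in the PR, and 14.94 to 15.04 in the FA brains. Of these 12, 1 was lower and 3 were higher for PR, and 3 were higher for FA. Among 5 genes of oligodendrocyte precursors, 1 was lower and 1 higher for PR and 2 were lower for FA. Among 10 of microglia, 1 was lower and 1 higher for PR, and 3 were lower and 1 higher for FA. In both comparisons 1 of 7 choroid plexus genes was lower. Among 8 genes of the cerebellum, 1 was higher for PR, and 3 were lower and 1 higher for FA. Of 4 genes of blood cells limma called 0 in both, and 0 had an unadjusted p under 0.05. The pituitary hormone genes Gh and Prl were well above background on all 4 CD arrays, on 0 PR arrays, and on 1 FA array, and the mean level of the 8 pituitary genes was 7.55 to 7.82 in the CD, 6.00 to 6.53 in the PR, and 5.37 to 7.34 in the FA brains. Of these 8, 2 were lower in each comparison. Only 3 of the 8 were well above background on all arrays, Lhb, Pou1f1, and Pomc, and over these the mean level was 10.16 to 10.47 in the CD, 9.99 to 10.22 in the PR, and 9.88 to 10.40 in the FA brains. These ranges overlapped between the groups, and limma called 0 of the 3 in either comparison, with 1 for PR and 0 for FA at an unadjusted p under 0.05. The probe of Pou1f1, which enters both means, read 13.65 to 14.55 in all brains, and whether it measures that transcript alone was not tested. The part of these cells, and of the tissue taken with the brain, in the differences of Gfap, Aqp4, Slc1a2, and Gja1 was not tested.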

How the data were processed

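RNA of 12 brains was hybridized by the authors to one-color Agilent 4x44K arrays and quantified with Feature Extraction 11.0.1.1, per the file headers, with probe coordinates on mm9. The authors deposited a table of 1 intensity per probe, normalized between arrays with the qspline function, whose ranks equaled those of the scanner intensities (Spearman 1.0 on every array). Its log2 was used here. Promoter methylation arrays were not analysed here. Groups came from the sample titles. The 39429 non-control probes of all 3 groups were fitted with limma 3.58.1 in R 4.3.3, and p-values were adjusted over all probes of a comparison. With 4 arrays per group, precision was limited by the number of arrays. On simulated arrays, limma recovered 59% of probes changed by 0.5 and 72% of those changed by 1 on the log2 scale, with 9 false calls. There 100 of the 39429 probes were changed at each size, in the PR group only, with independent noise and no difference between slides. A far larger share of probes was called in the data, so these rates do not describe the calls reported here. The p-values rest on the spread between the mice of a group, whose arrays shared 1 slide. They hold no spread between slides, and the spread between litters cannot be told, since litters are not given.

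The 10 members, the 16 gene lists (188 genes, brightest probe of each, all found by name or accession), and the tests were chosen with earlier results of these data known. Named genes were all members, up to 4 genes of a list with the largest difference among called genes well above background, the 8 genes closest to the members, and the pituitary list; a few genes that this rule names are not reported here. Alternatives were 2 scalings to the 75th percentile, quantile normalization, normexp background correction with an offset of 50, removal of outlier spots or dim probes, a variance trend, fits of 2 groups, a replicate block, the Tukey test of the methods, the mean of all probes of a gene, and leaving out each array. The tests between probes of a gene and the alternatives for the other lists were added after the values were seen. Permutation tests used scipy 1.17.1 under Python 3.11.15.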

Additional observations from a re-analysis of the deposited data

Results flagged for a closer look

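In 2 of 45 sets of 4 brains (15 probes, 3 groups), 1 brain stood far from the other 3, measured as its gap to the nearest brain over the whole range of the group and set against the 95% limit of Dixon's test. Chance flags about 1 in 20 sets. For Aqp4 probe 2 this was CD replicate 2 (gap ratio 0.896), at 12.57 where the other CD brains lay between 12.33 and 12.36. For Gjb6 it was PR replicate 1 (gap ratio 0.905), at 13.69 where the other PR brains lay between 13.89 and 13.92.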

How the results depend on the processing

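The number of called marker probes in the PR group was 9 with scaling to the 75th percentile of all probes (beside 37.3% of all probes), 3 with only the 2 groups compared (26.8%), 2 with the Tukey test of the methods (21.2%), and 0 at 2-fold and an adjusted p under 0.0001 (0.0862%), and ranged from 2 to 5 without 1 array. In the FA group it was 9 with scaling to the 75th percentile of all probes (39.6%), 8 with that of probes well above background (39.2%), 0 at 2-fold and an adjusted p under 0.0001 (0.195%), and 5 without any 1 array. Between FA and PR it was 0 in all alternatives. With the 75th percentile of probes well above background, the PR group kept its 5 calls and gained Aldoc (-0.26) and S100b (-0.19). Of all probes 36.7% were called there. Limma with a variance trend also called Aqp4 probe 2 in the PR group (adjusted p = 0.044), beside 30.4% of all probes. The cause of these changes was not tested. Among all probes, the share of lower calls was 55.3% in the PR group and 44.1% after normexp correction, and between FA and PR 62.8% and 83.5% with scaling to the 75th percentile.

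Some differences that were not called with the deposited normalization changed direction. In the PR group Glul became -0.16 and -0.12 with the 2 scalings to the 75th percentile, and Aldh1l1 0.018 with normexp. Aldoc became 0.027 with quantile normalization with or without outlier spots. Slc1a2 was 0.076 by its brightest probe, probe 1, and -0.21 as the mean of its probes. In the FA group Slc1a2 probe 1 became 0.039 with normexp, whereas the called Slc1a2 probe 3 stayed lower, at -0.53. Between FA and PR Aldoc became 0.023 and 0.021 with the 2 scalings. Without 1 array, PR differences ranged from -0.033 to 0.0066 for Aldh1l1, from -0.060 to 0.010 for Slc1a3, and from -0.0068 to 0.043 for Glul. FA differences ranged from -0.077 to 0.053 for Slc1a2 probe 1, and from -0.735 to -0.51 for Slc1a2 probe 3. Differences between FA and PR ranged from -0.021 to 0.038 for S100b and from -0.071 to 0.0089 for Gjb6.

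Replicate numbers give the position on the slide. Deviations of same-numbered arrays correlated with r from -0.063 to 0.196 (median 0.029, 3 of 12 over 0.1) and those of differently numbered arrays of 2 groups with r from -0.216 to 0.180 (median -0.021, 4 of 36 over 0.1), so that not every pair was over 0.1 and the numbers were not taken as pairs, and 5 of 12 arrays correlated best with one of their own number. With the number as a replicate block, 5 marker probes were called in the PR, 5 in the FA, and 0 in the FA to PR comparison, with Aqp4 probe 2 called in the PR group in place of Aqp4 probe 1 (adjusted p = 0.048 and 0.059).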
